A study of Mus musculus with 12 samples.

Results

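The comparison described here sets bone marrow-derived macrophages (BMMs) that had received RANKL, the WT RANKL group, against BMMs of another mouse line that had received none, the Control Basal group. It rests on 4 of the 12 RNA-seq libraries of the series, 2 replicates of each group. The pair was chosen by the level of Lyz2, the lysozyme M gene, which was high in these 2 groups and low in the unstimulated WT cells, so that the RANKL response could be read a second time against another baseline. The levels of Lyz2 are therefore given as a description, without a test.

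BMMs were bone marrow cells of the femur and tibia grown with M-CSF, the growth factor of macrophages, for 3 days. The WT RANKL cells came from mice labelled Mir182+/+LysMcre(+) and then had RANKL for 5 days. The Control Basal cells came from mice labelled LysMcre(+), the littermates of mice with a Mir182 transgene, and had no RANKL. All animals are described as carrying the LysMcre allele, which drives Cre from the lysozyme M promoter in myeloid cells. The background is described as C57BL/6, which was not tested here, and no source used here gives the age of the animals. A second unstimulated group, WT Basal, had the genotype of the WT RANKL cells and served only as the other baseline. The WT animals were littermates of Mir182ΔM/ΔM mice. By their labels, WT RANKL and Control Basal differed in RANKL and in mouse line, which cannot be told apart in this comparison. Both kinds of WT cells, with and without RANKL, are described with the same 5 days, and no source used here gives the time for the Control cells or says whether animals were pooled.

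RANKL is the cytokine that turns macrophages into osteoclasts, the multinucleated cells that resorb bone. It binds RANK, signals through TRAF6 and NF-κB, and with the costimulatory ITAM adaptors DAP12 and FcRγ leads to the transcription factor NFATc1. NFATc1 then turns on the genes for cell fusion, for attachment by podosomes, and for the acid and proteases that dissolve bone, while factors such as IRF8 hold this program back.

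The 4 libraries held between 25058985 and 31322692 reads on genes, so that 3 reads were worth 0.0958 to 0.120 CPM, the reads of a gene scaled to a fixed total per library. The replicates of a group differed from each other by far more than sampling noise, with a chi-square of 51.1 per gene for WT RANKL and 59.7 for Control Basal. Libraries of the same replicate number deviated together. Rn45s, the precursor of ribosomal RNA, was at 1009 and 15202 CPM in WT RANKL and at 989 and 15400.0 CPM in Control Basal, low in both replicate 1 libraries and high in both replicate 2 libraries, and the replicate number was kept in the fit as a block. The labels give polyA RNA for replicate 1 and total RNA for replicate 2.

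Lyz2 (chromosome 10, 117277331 to 117282321, GRCm38) was at 4117 and 4288 CPM in WT RANKL and at 5783 and 6615 CPM in Control Basal. In WT Basal, whose genotype label is that of WT RANKL, it was at 44.0 and 39.8 CPM. The Mir182ΔM/ΔM libraries ran from 22.5 to 34.6 CPM and the Mir182mTg libraries held 6338 and 7062 CPM, and the high level in WT RANKL is the one that the choice of the pair rests on. Ifi202b, an interferon-inducible gene of the PYHIN family, was at 1.12 and 0.972 CPM in WT RANKL, at 0 reads in both Control Basal libraries, and at 82.1 to 152 CPM in the WT Basal and Mir182ΔM/ΔM libraries. Ifi44, an interferon-induced gene, was at 2.83 and 2.56 CPM in WT RANKL, at 1.31 and 1.13 CPM in Control Basal and at 66.4 and 62.9 CPM in WT Basal. Ifi44 also varied within the Mir182ΔM/ΔM cells, at 12.7 and 11.4 CPM without RANKL and at 226 and 206 CPM with it. Wdfy1, which encodes an endosomal adaptor, was at 34.5 and 34.0 CPM in WT RANKL, at 17.5 and 19.4 CPM in Control Basal and at 54.9 and 56.7 CPM in WT Basal. Lyz1, the lysozyme gene next to Lyz2, was at 16.2 and 21.0, at 8.72 and 12.8 and at 27.3 and 31.4 CPM in the same order. For Ifi202b and Ifi44 WT RANKL thus lay nearer Control Basal, and for Wdfy1 and Lyz1 it lay between the unstimulated groups. Whether the WT RANKL cells came from the line that their label gives was not tested, and each difference from Control Basal or WT Basal below holds for the libraries as labelled.

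**Figure D1:**
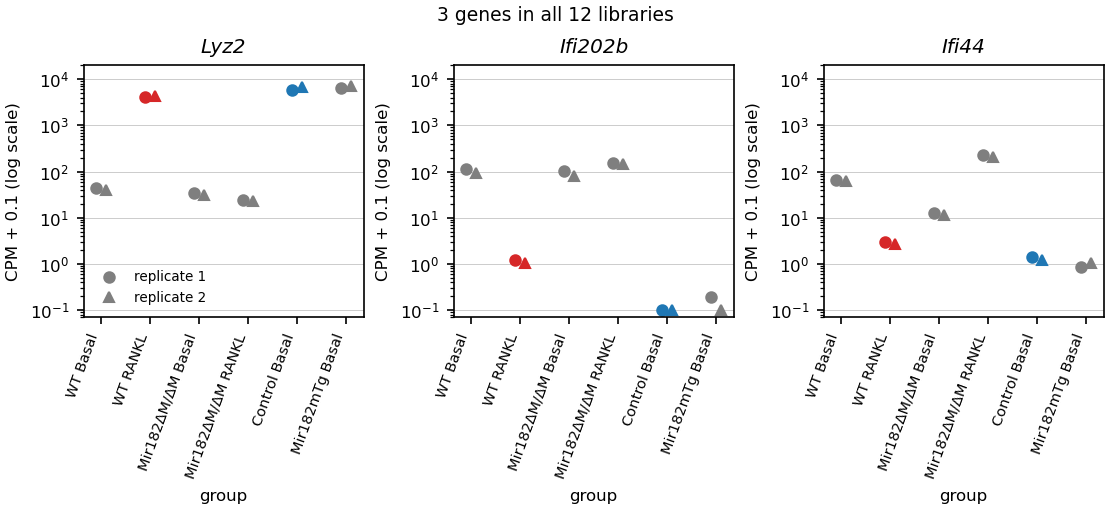
Lyz2, Ifi202b and Ifi44 in all 12 libraries (CPM + 0.1, log axis), with circles for replicate 1 and triangles for replicate 2. Lyz2 is the gene by which the pair was chosen. For Ifi202b and Ifi44 WT RANKL (red) lies nearer Control Basal (blue) and Mir182mTg than WT Basal, unlike Wdfy1 and Lyz1, which are not plotted.

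A gene was tested where 2 or more of the 4 libraries reached 1 CPM, which 11449 genes did. Of these, 5028 (43.9%) were higher and 3932 (34.3%) were lower in WT RANKL than in Control Basal at an adjusted p under 0.05 (limma, Benjamini-Hochberg). The genes at least 2-fold higher numbered 976 (8.52%) and those at least 2-fold lower 580 (5.07%), and the median log2 difference over all genes tested was 0.06. Without the replicate block the counts were 2976 higher and 2312 lower. The excess of higher genes depended on scaling, with 4446 higher and 4472 lower under TMM factors, 4457 and 4462 under upper-quartile scaling, and 4096 and 4769 under quantile normalization. The 976 genes lay in the same direction in both replicate numbers, with 945 of them at least 2-fold higher within replicate 1 and 934 within replicate 2. All 580 lower genes did so too, with 557 and 547 at least 2-fold lower. The call used the mean of the 2 within-replicate differences, so this agreement was largely set by the selection and is no separate support. With 1 residual degree of freedom per gene, limma took the spread from all genes of a like level, so the adjusted p-values are very small and the size of a difference says more than its p. The replicates are described as independent biological ones, but nothing in the labels ties them to separate animals or cultures. The p-values measure the spread left after the replicate block, pooled over genes, and not the spread of a gene between its own libraries. A call for a member of a group below is thus read against shares of 43.9% and 34.3% among all genes. Differences are of log2(CPM + 1), a scale that understates the change of low genes. The standard error given with a difference rests on the same pooled spread.

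The 10 genes that rose furthest were led by enzymes of the osteoclast. Mmp9 (chromosome 2, 164940780 to 164955850), a gelatinase that osteoclasts secrete, was at 4.79 and 1.66 CPM in Control Basal and at 4943 and 4921 CPM in WT RANKL, a log2 difference of 10.29 ± 0.031. Ctsk, Acp5, Src, Ocstamp, Dcstamp and Car2, whose roles are given below, were among the 10 as well. The other 3 were Mycl, a member of the Myc family of transcription factors, at 0.192 and 0.340 against 95.5 and 100.5 CPM, Scin, which encodes the actin-severing protein scinderin, at 0.255 and 0.302 against 96.0 and 102 CPM, and Slc6a12, a betaine transporter, at 0.0958 and 0.0756 against 75.2 and 83.0 CPM. The Control values of Slc6a12 came from 3 and 2 reads. Only genes whose groups did not overlap could be among the 10.

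The genes that fell furthest were led by Id1 and Id3, inhibitors of DNA binding that hold back differentiation in many lineages. Id1 (chromosome 2, 152736251 to 152737410) was at 52.7 and 56.7 CPM in Control Basal and at 0.239 and 0.216 CPM in WT RANKL, a log2 difference of -5.50 ± 0.10. Id3 was at 49.6 and 69.5 against 1.08 and 1.40 CPM. Next came Cd34, a surface protein of progenitor cells, at 30.8 and 30.2 against 0.439 and 0.324 CPM (80.02-fold lower), and Ccnd2, the cyclin D2 of the G1 phase, at 58.2 and 55.4 against 1.76 and 1.73 CPM (32.6-fold lower). Rgs1, a regulator of G protein signalling, was at 93.8 and 93.8 against 4.59 and 4.68 CPM, and Nes, the intermediate filament gene nestin, at 44.4 and 41.6 against 1.72 and 1.76 CPM. The other 4 were secreted proteins: the chemokines Cxcl14 and Ccl7, the angiopoietin-like protein Angptl2, and Plau, the protease urokinase, which was at 757 and 901 against 48.3 and 61.8 CPM. All 10 were also higher in Control Basal than in WT Basal, by log2 differences from 1.75 ± 0.089 for Nes to 5.10 ± 0.12 for Id1. The Control libraries that picked these genes are part of that second comparison too.

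**Figure D2:**
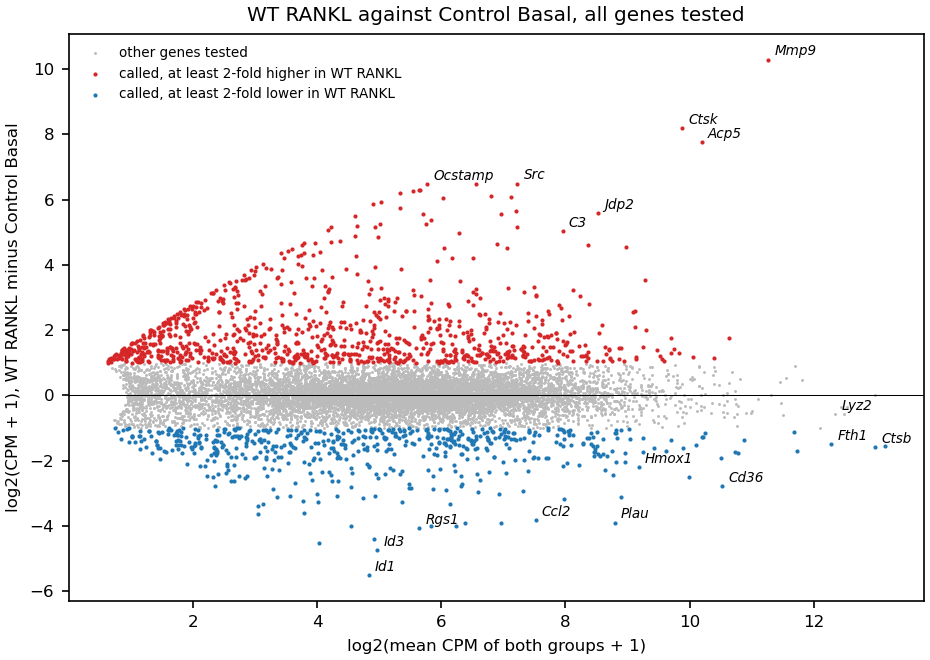
Log2 difference of CPM + 1 (WT RANKL minus Control Basal) against the log2 of the mean CPM of both groups + 1 for the 11449 genes tested, with the 976 genes called at least 2-fold higher in red and the 580 called at least 2-fold lower in blue. Mmp9, Ctsk and Acp5 stand at the top and Id1 and Id3 at the bottom, while Lyz2 lies near the middle.

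The transcription factors that drive osteoclast formation were higher as a group. Of 20 on the list, all tested, 17 were higher, 2 lower and 1 did not pass, with a median log2 difference of 1.20 against 0.06 over all genes. Nfatc1, the master regulator of the program, rose from 89.5 and 75.1 CPM in Control Basal to 647 and 523 CPM in WT RANKL (7.11-fold). Prdm1, which encodes Blimp1, a repressor of the genes that oppose osteoclast formation, rose from 8.84 and 7.82 to 179 and 166 CPM (20.7-fold). In both genes the WT RANKL libraries lay far above the Control libraries.

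The AP-1 family did not move as a block. Jdp2, a dimerization partner of Jun, was at 15.0 and 13.0 against 756 and 691 CPM (51.7-fold), and Fosl2 at 53.4 and 50.5 against 499.8 and 502 CPM. Fos, without which no osteoclasts form, was higher by 1.51 ± 0.031 and Junb by 1.52 ± 0.032, whereas Jun and Fosl1 were lower, with log2 differences of -0.96 ± 0.033 and -1.07 ± 0.13. Of the NF-κB genes, those of the non-canonical arm were higher, Nfkb2 by 2.76 ± 0.030 and Relb by 2.65 ± 0.053, while Nfkb1 differed by 0.42 ± 0.028 and Rela by 0.34 ± 0.034. Ppargc1b, a coactivator of mitochondrial genes, was at 5.01 and 4.08 against 54.6 and 49.0 CPM. The lineage factors Mitf, Myc and Spi1 (PU.1) were higher by 1.15 ± 0.032, 1.24 ± 0.032 and 0.88 ± 0.024, and Tfe3, a relative of Mitf, was at 174 and 160.3 against 170.0 and 161 CPM (adjusted p = 0.74).

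The repressors of osteoclast formation went the other way. Of 12, 9 were lower, 2 higher and 1 did not pass, with a median of -1.03. Beside Id1 and Id3, Id2 fell from 139 and 130.5 to 37.4 and 32.0 CPM, and Irf8, whose protein blocks NFATc1, from 153 and 147 to 62.4 and 59.7 CPM. Bcl6, a repressor that Blimp1 silences, was lower by 1.17 ± 0.041, and Cebpb, a basic leucine zipper factor of myeloid cells, was lower by 1.60 ± 0.080. Maf, a factor of the macrophage state, and Rbpj, the effector of Notch, were lower too, with log2 differences of -0.89 ± 0.025 and -0.63 ± 0.030. Bach2 went up from 2.14 and 2.003 to 10.02 and 8.82 CPM, and Irf4 was at 2.27 and 2.53 against 2.31 and 2.05 CPM (adjusted p = 0.53).

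Receptor signalling genes were mostly higher by small amounts, 19 of 23, with 2 lower, 2 not passing and a median of 0.417. Tnfrsf11a, which encodes RANK, was at 204 and 193 against 281 and 268 CPM (1.38-fold), and Traf6, its main adaptor, at 68.4 and 60.9 against 89.7 and 81.6 CPM (1.32-fold). Csf1r, the M-CSF receptor, was at 2209 and 2330.3 against 2032 and 2169 CPM, lower by 1.08-fold here but higher by 0.126 on the log2 scale under quantile normalization. The genes at least 2-fold higher in the list included the inhibitors of NF-κB Nfkbia and Nfkbie, with log2 differences of 1.90 ± 0.030 and 2.43 ± 0.052, the ubiquitin-editing inhibitor Tnfaip3 (1.37 ± 0.043), and the adaptors Traf2, Traf3 and Traf5 (1.41 ± 0.047, 1.23 ± 0.036 and 1.58 ± 0.080). Map3k7 (TAK1) and Akt1 did not pass the test, with adjusted p-values of 0.37 and 0.29.

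Among 14 genes of ITAM costimulation, 8 were higher and 6 lower, with a median of 0.184. Oscar, a collagen receptor of osteoclasts that signals through FcRγ, had 1 and 0 reads in the Control libraries and 911 and 960 reads in WT RANKL, 36.4 and 34.5 CPM. Siglec15, a sialic acid receptor that signals through DAP12, had 0 and 1 reads against 157 and 122 reads. The kinase Syk was higher by 0.95 ± 0.023 and the adaptor Blnk by 1.41 ± 0.031. Of the adaptors that couple these receptors, Tyrobp (DAP12) differed by only 0.06 ± 0.021 with overlapping groups (adjusted p = 0.0056) and by -0.001 under TMM scaling, and Fcer1g (FcRγ) was lower, 801 and 702 against 435 and 389 CPM. Trem2, the DAP12 receptor of macrophages, fell from 501 and 579.7 to 168 and 203 CPM.

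Fusion genes had no common direction. Of 12 listed, 11 were tested, 6 higher and 5 lower, with a median of 0.198, and Adam12 was too low to test. Dcstamp (chromosome 15, 39745930 to 39760938) and Ocstamp, membrane proteins without which precursors do not fuse, were at 1.09 and 1.10 against 162 and 210.1 CPM and at 0.255 and 0.151 against 96.5 and 118 CPM. Atp6v0d2, a proton pump subunit that takes part in fusion, rose from 27.1 and 22.7 to 718 and 553 CPM, and Cd200 from 1.37 and 0.907 to 61.9 and 58.4 CPM. Its receptor Cd200r1 was lower by 1.27 ± 0.047. Adam8, a membrane metalloprotease, fell from 2638 and 2789 to 764 and 829.8 CPM, and the tetraspanins Cd9 and Cd81 were lower, with log2 differences of -0.56 ± 0.025 and -0.84 ± 0.032.

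The bone resorption genes showed the largest median of the lists, 3.18. Of 16, 14 were higher, all by at least 2-fold, and 2 were lower. Acp5, which encodes the osteoclast enzyme TRAP, was at 9.74 and 9.79 CPM in Control Basal and at 2194 and 2466 CPM in WT RANKL (239-fold), and Ctsk, the collagen-degrading cathepsin K, at 5.52 and 5.25 against 1778 and 1962 CPM (347-fold). Mmp14, a membrane-bound collagenase, was at 4.63 and 4.69 against 269 and 304 CPM and Src, the kinase needed for the ruffled border, at 2.68 and 1.93 against 289 and 302 CPM. The groups lay far apart for all 4 enzymes and kinases. Itgb3, the β3 chain of the vitronectin receptor, was at 6.26 and 6.88 against 58.1 and 59.8 CPM.

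Acid secretion needs carbonic anhydrase, a proton pump, a chloride channel and exchangers that keep the cell neutral. Car2, the carbonic anhydrase, was at 0.287 and 0.113 against 92.1 and 90.1 CPM, a log2 difference of 6.27 ± 0.095. Tcirg1, the pump subunit of the ruffled border, was higher by 1.29 ± 0.021, the chloride-proton exchanger Clcn7 by 1.37 ± 0.026, the bicarbonate exchanger Slc4a2 by 1.18 ± 0.028 and the sodium-proton exchanger Slc9b2 by 4.51 ± 0.064. Ostm1, the partner of Clcn7, and Plekhm1, a vesicle transport protein, were the 2 lower members, with log2 differences of -0.31 ± 0.035 and -0.31 ± 0.029. Calcr, the calcitonin receptor, had no read in either Control library and was at 9.78 and 8.997 CPM in WT RANKL, at least 89.8-fold higher when 3 reads per Control library are taken as the floor.

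**Figure D3:**
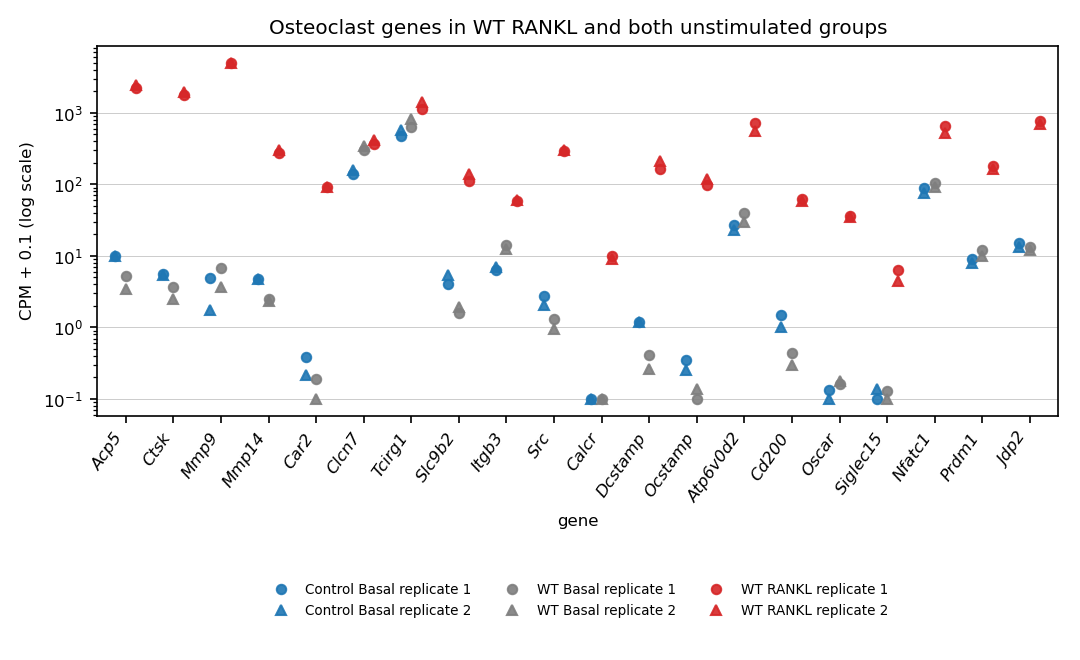
CPM + 0.1 (log axis) of 20 osteoclast genes in Control Basal (blue), WT Basal (grey) and WT RANKL (red), with circles for replicate 1 and triangles for replicate 2. Both WT RANKL libraries lie above all 4 unstimulated libraries for each of the 20 genes, by little for Clcn7 and by the most for Mmp9.

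The promoters of Ctsk and Acp5 are printed to show a loose sequence pattern that these 2 genes shared and the rule of the comparison did not use. Promoters are the 300 bases from 250 before to 50 after a transcription start, from RefSeq on GRCm38.p6, 5′ to 3′ on the gene's strand. Capitals mark TCANNTGA, a loose form of the core bound by MITF and TFE factors that allows any 2 middle bases. These are GA in Ctsk and CA in Acp5. The pattern was searched on both strands, on which it reads the same. It lies 136 bases before the start of Ctsk (chr3:95498960-95499259, plus strand), the only start of that gene in the table, and 91 bases before 1 of the 3 starts of Acp5 (chr9:22130549-22130848, minus strand).
Ctsk: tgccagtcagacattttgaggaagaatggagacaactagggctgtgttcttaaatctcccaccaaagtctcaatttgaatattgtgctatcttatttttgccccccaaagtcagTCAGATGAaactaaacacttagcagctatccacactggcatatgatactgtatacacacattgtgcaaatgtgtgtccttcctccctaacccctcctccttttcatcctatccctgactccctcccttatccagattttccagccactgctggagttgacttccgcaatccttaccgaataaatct
Acp5: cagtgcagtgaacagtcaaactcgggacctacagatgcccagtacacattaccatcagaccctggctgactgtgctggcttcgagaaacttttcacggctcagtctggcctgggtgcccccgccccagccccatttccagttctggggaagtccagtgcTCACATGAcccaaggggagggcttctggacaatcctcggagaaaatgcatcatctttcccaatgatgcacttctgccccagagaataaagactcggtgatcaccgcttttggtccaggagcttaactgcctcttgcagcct
The loose pattern was found at 8.39% of all 32851 starts. Of the 16 resorption genes 12 had a promoter in the table, with 21 starts, of which 4 (19%) held it, those of Acp5, Clcn7, Ctsk and Plekhm1, and Plekhm1 was lower in WT RANKL. Of the 18 V-ATPase genes 12 had a promoter, and 5 of 16 starts (31.2%) held it. A match describes these letters only.

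The promoter of Prdm1 (chr10:44458699-44458998, minus strand) is shown for TGANTCA, in capitals, 48 bases before the start. This is a loose form of the core bound by AP-1 that allows any middle base, which is A in Prdm1. Binding was not tested. The loose form was searched on both strands and stood at 7.81% of all starts. It stood at 3 of the 22 starts (13.6%) of the 13 osteoclast transcription factors whose promoters were counted, those of Nfkb2, Prdm1 and Tfe3.
Prdm1: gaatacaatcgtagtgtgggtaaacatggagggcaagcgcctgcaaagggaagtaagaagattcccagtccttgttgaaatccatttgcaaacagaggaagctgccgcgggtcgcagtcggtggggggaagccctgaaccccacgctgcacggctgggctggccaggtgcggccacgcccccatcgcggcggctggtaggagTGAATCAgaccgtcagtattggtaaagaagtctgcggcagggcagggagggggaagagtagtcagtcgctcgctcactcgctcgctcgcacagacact

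The proton pump as a whole was higher. Of 18 V-ATPase subunits 17 were tested, of which 14 were higher, 1 lower and 2 did not pass, with a median of 0.567. Beside Tcirg1 and Atp6v0d2, which stand in 2 lists each, Atp6v1b2 rose from 431 and 502 to 1141 and 1344 CPM and Atp6v1d from 108 and 101 to 309 and 276 CPM. Atp6v0a1, the a1 isoform that stands in the place of Tcirg1 in other pumps, fell from 325 and 311 to 160.1 and 149 CPM. Atp6v0c was at 0.144 CPM or less in the 4 libraries. Genes with near-identical copies elsewhere in the genome, such as Atp6v0c, Gapdh, Eno1, Fth1, Ftl1 and Oas1a, can lose reads in counting, and their values are uncertain.

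Podosomes, the actin rings by which osteoclasts hold to bone, were represented by 26 genes, 14 higher, 11 lower and 1 not passing, with a median of 0.116. Without the replicate block 9 were higher and 7 lower. Itgav, the partner of Itgb3, was at 301 and 299 against 510.4 and 512 CPM, while Itgb5, which pairs with the same chain in macrophages, fell from 407 and 437 to 94.1 and 106 CPM. Rac2, the GTPase of actin assembly in blood cells, rose from 349 and 335 to 802 and 766 CPM. The adhesion proteins Actn1 and Pxn were higher by 0.78 ± 0.024 and 1.05 ± 0.025. Ptk2b, the adhesion kinase PYK2, was lower by 1.16 ± 0.026.

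Factors that osteoclasts send to bone-forming cells were tested for 8 of 13 genes, since 5 were too low. Of these, 7 were higher and 1 lower. C3, the complement component, rose from 14.4 and 13.0 to 506 and 456 CPM (35.1-fold), and Sema4d, which restrains osteoblasts, from 315 and 326 to 873 and 925 CPM. Lif had 3 and 2 reads in Control Basal and 153 reads in each WT RANKL library. Efnb2 was at 0.192 and 0.189 against 3.79 and 3.96 CPM. Pdgfb, a growth factor for mesenchymal and vessel cells, was at 94.0 and 97.8 against 111 and 116 CPM, a log2 difference of 0.24 ± 0.034.

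Genes of macrophage identity and of the uptake of dead cells were lower. Of 23 listed 21 were tested, with 18 lower, 2 higher, 1 not passing and a median of -0.851. Cd36 and Msr1, scavenger receptors, fell from 2596 and 2524 to 380.2 and 371 CPM and from 1757 and 1698 to 309 and 298 CPM. Fcgr1, the high-affinity IgG receptor, fell from 129 and 147 to 18.5 and 19.8 CPM. Log2 differences were -1.38 ± 0.019 for the scavenger receptor Stab1, -1.24 ± 0.055 for the receptor Axl, -1.07 ± 0.026 for Gas6, the ligand of Axl and Mertk, and -0.85 ± 0.020 for the complement gene C1qb. The general markers Csf1r, Cd68 and Adgre1 were closer to Control, with log2 differences of -0.11 ± 0.019, -0.18 ± 0.019 and -0.55 ± 0.020, and Itgam (CD11b) was higher by 0.30 ± 0.020. The differences of Csf1r and Cd68 did not pass without the replicate block. In bulk RNA fewer cells of a type and less RNA per cell cannot be told apart.

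Chemokine genes had a median of -1.32, the lowest of the 22 lists other than marker lists of other cells, with 12 of 17 tested lower and 5 higher. Ccl2 and Ccl7, which draw monocytes through CCR2, fell from 340.1 and 343 to 24.3 and 22.3 CPM and from 96.1 and 118 to 6.23 and 5.33 CPM. The log2 differences of Ccl3 and Ccl4 were -1.64 ± 0.068 and -3.01 ± 0.097. The receptors Ccr2 and Cx3cr1 (chromosome 9, 119901616 to 120069879) were lower as well, with log2 differences of -1.98 ± 0.033 and -2.14 ± 0.027. Ccr1, the receptor of Ccl9, rose from 74.5 and 75.5 to 189 and 190.4 CPM and Ccl9 itself from 798 and 767 to 1525 and 1430.5 CPM. The low median of the chemokine list depended on the baseline. Against WT Basal it was -0.248, with 6 genes higher and 10 lower in WT RANKL. Of the 17 genes, 11 were higher and 5 lower in Control Basal than in WT Basal, with a median of 0.927.

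Of 15 inflammatory cytokine genes 10 were tested, of which 7 were lower and 2 higher, with a median of -0.511. Tnf was at 49.8 and 51.8 against 7.82 and 9.75 CPM and Spp1, which encodes osteopontin, at 1596 and 1739 against 674 and 704 CPM. Il1rn, the interleukin 1 receptor antagonist, rose from 20.3 and 16.2 to 64.3 and 52.3 CPM. Ifnb1 was at 0 reads in 3 of the 4 libraries and at 0.038 CPM in the other, under the value of 3 reads. Of the 16 Toll-like receptor and adaptor genes 8 were lower, 3 higher and 5 did not pass, with a median of -0.16, and without the replicate block 5 were lower and 2 higher. Tlr13, a sensor of bacterial ribosomal RNA, fell from 729.8 and 711 to 178 and 175 CPM, and Tlr9, the receptor for unmethylated DNA, was at 10.1 and 7.56 against 50.7 and 43.1 CPM.

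Type I interferon response genes were higher than in Control, but by little. Of 40, 28 were higher, 6 lower and 6 did not pass, with a median of 0.365, and 2 were at least 2-fold higher. Without the replicate block 22 were higher and 3 lower. The 2 were Ly6e, at 390.1 and 369.8 against 1314 and 1258 CPM, and the RNA sensor Ddx58 (RIG-I), at 65.6 and 63.2 against 178 and 157 CPM. Of the other members, Ifit1 was higher by 0.91 ± 0.084, Cxcl10 by 0.92 ± 0.087, Mx1 by 0.47 ± 0.10 and Irf7 by 0.43 ± 0.050, and Ifit2 was at 17.2 and 15.3 against 20.3 and 17.1 CPM (adjusted p = 0.021), a difference that no longer passed under TMM, upper-quartile or quantile scaling. Eif2ak2, which encodes the double-stranded RNA kinase PKR, was lower, at 121 and 111 against 90.0 and 80.5 CPM, and Stat2 was lower by 0.63 ± 0.036.

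All 7 tested genes of antigen presentation by MHC class II, of 10 listed, were higher, with a median of 1.605. H2-DMa, a chain of the peptide exchange factor, was nearest the threshold (adjusted p = 0.05) and did not pass under most other settings, TMM scaling and the fit without the replicate block among them. Ciita, the transactivator of the pathway, was at 1.53 and 2.42 against 18.4 and 20.9 CPM, and Cd74, the invariant chain, at 69.4 and 70.4 against 318 and 325 CPM. The class II chains H2-Aa, H2-Ab1 and H2-Eb1 were higher by 1.74 ± 0.050, 1.57 ± 0.059 and 1.60 ± 0.063. The 3 members too low to test were H2-Oa, H2-Ob and H2-DMb2, and H2-Ob, at 0.766 and 0.945 CPM in Control Basal and at 0.239 and 0.144 CPM in WT RANKL, lay on the other side. The dendritic cell markers summed to 2.99 and 3.60 CPM in WT RANKL and to 1.44 and 1.66 CPM in Control Basal, and those of B cells to 3.67 and 3.20 CPM against 2.17 and 2.68 CPM. Their part in the class II values was not tested.

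All 20 genes of mitochondrial respiration were higher, with a median of 0.727. Their log2 differences ran from 0.27 ± 0.034 for Ndufa9 to 1.06 ± 0.027 for Uqcrc2, subunits of complexes I and III. Sdha, of complex II, rose from 309.8 and 326 to 642 and 678 CPM and Idh3a, of the citric acid cycle, from 107 and 102 to 207 and 201 CPM. Glycolysis genes had no common direction, with 5 of 13 tested higher, 7 lower, 1 not passing and a median of -0.058, and with 1 higher and 5 lower without the replicate block. Hk2, the inducible hexokinase, was lower by 1.11 ± 0.040, and Slc2a1, the glucose transporter GLUT1, was lower by 0.67 ± 0.040, while Aldoa was higher by 0.37 ± 0.019.

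DNA replication genes were lower in 17 of 18, with a median of -0.535, and mitosis genes in 13 of 18, with 3 higher, 2 not passing and a median of -0.194. Pcna, the sliding clamp of DNA polymerase, fell from 349 and 372 to 139.8 and 146 CPM, and the cyclins Ccne1 and Ccne2 were lower, with log2 differences of -1.02 ± 0.062 and -1.07 ± 0.044. Mcm7 was the exception, higher by 0.20 ± 0.030. Of the mitosis genes, Mki67 was at 1278 and 1023 against 1017 and 790.2 CPM, Top2a was lower by 0.18 ± 0.021, and Bub1b and Cdc20, of the spindle checkpoint, were higher by 0.47 ± 0.029 and 0.38 ± 0.037. Without the replicate block 14 replication genes and 6 mitosis genes were lower, and Mcm7, Mki67, Top2a and Cdc20 no longer passed.

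Lysosomal hydrolases and membrane proteins other than cathepsin K were lower in 17 of 19, with 1 higher, 1 not passing and a median of -0.541. Ctsb and Ctsd fell from 11812 and 12583 to 4017 and 4174 CPM and from 13096 and 13917 to 4503 and 4695 CPM. The log2 differences were -1.73 ± 0.019 for Ctsl, -0.94 ± 0.019 for the acid lipase Lipa and -0.57 ± 0.019 for the membrane protein Lamp1. Npc2, a cholesterol carrier of the lysosome, was higher by 0.49 ± 0.020.

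Of 10 iron genes tested, 5 were higher and 5 lower, with a median of -0.359. Fth1 and Ftl1, the ferritin chains that store iron, were lower, with log2 differences of -1.48 ± 0.018 and -0.997 ± 0.018, and Slc40a1 (ferroportin), which exports it, was lower by 1.34 ± 0.042. Hmox1, which frees iron from heme, fell from 966 and 937 to 206 and 209.9 CPM. Tfrc, the transferrin receptor that takes iron up, rose from 284 and 301 to 449 and 513 CPM, and Slc11a2, which passes it into the cytosol, was higher by 1.03 ± 0.042. Steap4, a metalloreductase, had no read in Control Basal and was at 13.6 and 13.0 CPM in WT RANKL, at least 127-fold higher against the floor of 3 reads per library.

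Cholesterol synthesis genes were lower in 15 of 16, with 1 not passing and a median of -0.876. Sqle, which makes squalene epoxide, fell from 163 and 158 to 52.2 and 48.2 CPM, Cyp51 from 139.6 and 126 to 50.0 and 43.2 CPM and Fdps from 89.3 and 111 to 35.0 and 46.0 CPM. Hmgcs1, which makes HMG-CoA, had a log2 difference of -0.76 ± 0.031. Mvd was at 38.1 and 39.8 against 38.6 and 40.1 CPM (adjusted p = 0.82). The promoter of Hmgcs1 (chr13:119690101-119690400, plus strand) is shown because it held, in capitals, TCACNCCAC, a core bound by SREBP factors, searched on both strands, 137 bases before the start. It alone did so of the 12 starts (8.33%) counted for 10 listed genes, against 1.24% of all starts.
Hmgcs1: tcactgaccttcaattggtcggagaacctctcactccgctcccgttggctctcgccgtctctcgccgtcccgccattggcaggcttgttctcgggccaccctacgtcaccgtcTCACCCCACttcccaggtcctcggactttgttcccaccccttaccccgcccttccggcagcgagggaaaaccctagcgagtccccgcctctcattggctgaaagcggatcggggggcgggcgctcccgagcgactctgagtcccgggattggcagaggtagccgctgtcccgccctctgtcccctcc

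**Figure D4:**
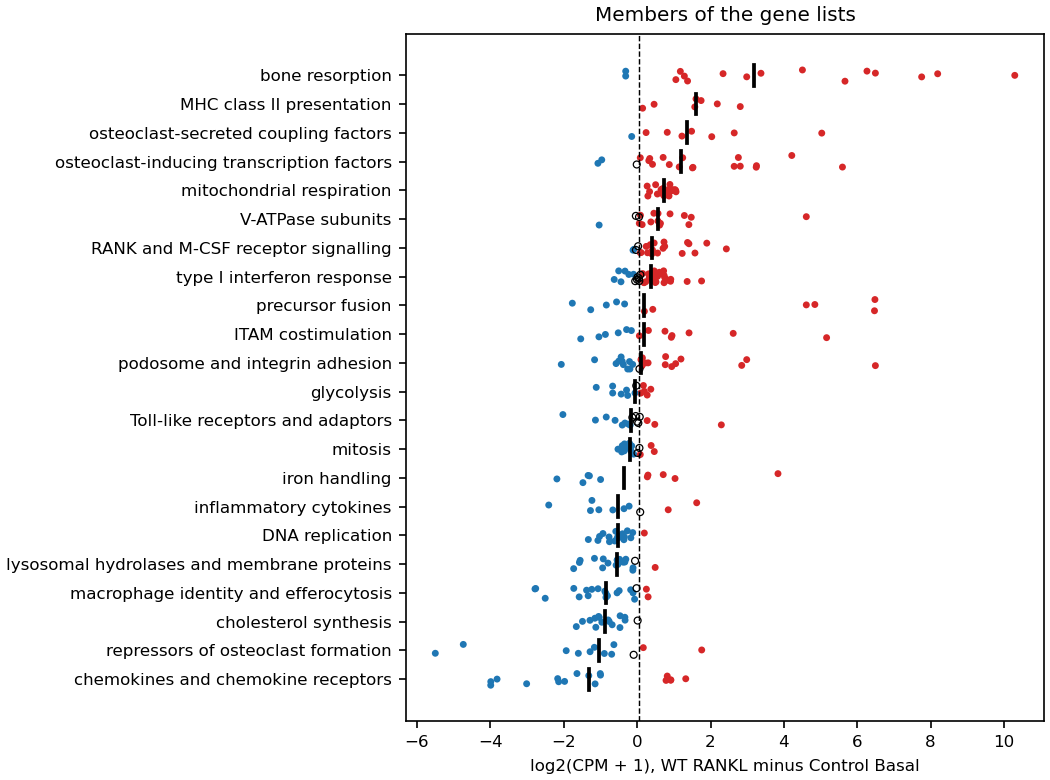
Log2 difference (WT RANKL minus Control Basal) of each tested member of the 22 gene lists, ordered by their medians (thick bars), with red and blue points for genes called higher and lower and open points for genes not called. The dashed line is the median of all genes, 0.06, and the list medians run from -1.32 for chemokines to 3.18 for bone resorption.

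Whether a difference depended on the unstimulated cells used was read from the other baseline. WT RANKL against Control Basal and WT RANKL against WT Basal share the WT RANKL libraries, so their difference is that between the baselines, tested as Control Basal against WT Basal with all 6 libraries in the fit. Of the 11449 genes, 5488 (47.9%) were higher and 3275 (28.6%) lower in Control Basal than in WT Basal, and without the replicate block 3451 and 1917. Against WT Basal itself 6244 (54.5%) were higher and 3315 (29%) lower in WT RANKL. The share of higher calls depended on scaling in both: with TMM factors the counts were 4403 and 4193 between the baselines, and 4882 and 4469 for WT RANKL against WT Basal, and the median of all genes between the baselines moved from 0.116 to 0.013.

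The osteoclast genes were low in both baselines. Acp5 was at 5.08 and 3.37 CPM in WT Basal, Ctsk at 3.52 and 2.40 CPM, Mmp9 at 6.67 and 3.61 CPM and Dcstamp at 0.306 and 0.160 CPM, so that WT RANKL exceeded WT Basal by 8.82 ± 0.078, 8.90 ± 0.075, 9.70 ± 0.12 and 7.23 ± 0.11 on the log2 scale. Nfatc1 was at 104 and 91.9 CPM and Prdm1 at 11.9 and 9.70 CPM there. For the resorption list the median was 3.18 against Control Basal and 2.97 against WT Basal. Between the baselines themselves, Acp5 and Ctsk were higher in Control Basal by 1.06 ± 0.078 and 0.70 ± 0.075.

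The values of Id1 and Id3 depended on the baseline. Id1 was at 0.459 and 0.802 CPM in WT Basal and at 0.239 and 0.216 CPM in WT RANKL, so that the difference of -5.50 from Control was -0.40 ± 0.12 against WT Basal, and the baselines differed by 5.10 ± 0.12. Id3 was at 0.948 and 1.24 CPM in WT Basal, a difference of 0.10 ± 0.11 from WT RANKL (adjusted p = 0.41). Irf8, Bcl6 and Maf were lower in WT RANKL than in WT Basal too, with log2 differences of -1.59 ± 0.031, -0.42 ± 0.040 and -1.64 ± 0.023.

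Some genes of the program were already higher in the Control cells. Fos was at 13.1 and 11.5 CPM in WT Basal, 83.4 and 81.0 in Control Basal and 242 and 229.8 in WT RANKL, and Myc at 26.3 and 19.2, 90.2 and 67.8 and 212 and 164 CPM in the same order. Pdgfb was at 11.2 and 10.9 CPM in WT Basal, so it differed from WT RANKL by 3.25 ± 0.045, against 0.24 ± 0.034 from Control. Itgav was at 98.4 and 103 CPM in WT Basal and Tnfrsf11a at 92.6 and 90.0 CPM, and Control Basal was higher by 1.57 ± 0.027 and 1.11 ± 0.028. RANK was thus higher in the unstimulated Control cells than in the unstimulated WT cells.

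Many macrophage genes were lower in Control Basal than in WT Basal. Mrc1, the mannose receptor, was at 4003 and 3734 CPM in WT Basal but at 365 and 352 in Control Basal and 441 and 413 in WT RANKL, so its log2 difference was 0.25 ± 0.024 against Control and -3.18 ± 0.022 against WT Basal. Apoe, at 1790.5 and 1790.0 CPM in WT Basal, was at 312 and 285 in Control Basal and 282 and 286 in WT RANKL. C1qa did not pass the test against Control (-0.02 ± 0.025, adjusted p = 0.54) and differed from WT Basal by -1.32 ± 0.023. Msr1 lay on the other side, at 364 and 336 CPM in WT Basal against 1757 and 1698 in Control Basal. Of the 21 tested genes of macrophage identity 16 were lower and 4 higher in Control Basal than in WT Basal.

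The interferon list changed its direction with the baseline. Its median was 0.365 against Control Basal and -0.391 against WT Basal, where 9 genes were higher and 28 lower, and 34 of the 40 genes were lower in Control Basal than in WT Basal. Ifit2 was at 69.6 and 62.5 CPM in WT Basal, above Control Basal and WT RANKL alike, and Mx1 at 16.1 and 17.8 CPM. Ly6e and Ddx58 were higher in WT RANKL against both, and Eif2ak2, at 121 and 103 CPM in WT Basal, was lower against both (-0.39 ± 0.035 against WT Basal). The baselines did not pass the test for Eif2ak2, with a log2 difference of 0.06 ± 0.035 (adjusted p = 0.15).

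The cell cycle lists did the same. The median of the replication genes was -0.535 against Control Basal and 0.733 against WT Basal, and that of the mitosis genes -0.194 and 0.489. All 18 genes of each list were higher in Control Basal than in WT Basal, with medians of 1.17 and 0.707. Mcm2 was at 168 and 176 CPM in Control Basal, 112 and 112 in WT RANKL and 71.8 and 72.8 in WT Basal, and Rrm2 at 169 and 175, 101 and 102 and 50.8 and 59.4 CPM. Pcna was lower in WT RANKL than in both, at 184 and 197 CPM in WT Basal. The glycolysis list had a median of -0.058 against Control Basal and 0.27 against WT Basal, where the median of all genes was 0.197. Of its 13 tested genes, 11 were higher and 2 lower in Control Basal than in WT Basal.

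Mitochondrial, MHC class II and cholesterol genes kept their direction against both baselines as counted: 20 of 20 and 7 of 7 were higher, and 16 of 16 were lower, in WT RANKL than in WT Basal. Against WT Basal their medians were 1.05, 1.74 and -1.62. Cholesterol genes were lower in Control Basal than in WT Basal in 16 of 16, with a median of -0.568. Hmgcs1 was at 481 and 419 CPM in WT Basal and Insig1, which holds SREBP factors back when sterols are high, at 237 and 258 CPM, against 84.7 and 92.3 in Control Basal and 46.1 and 55.7 in WT RANKL.

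**Figure D5:**
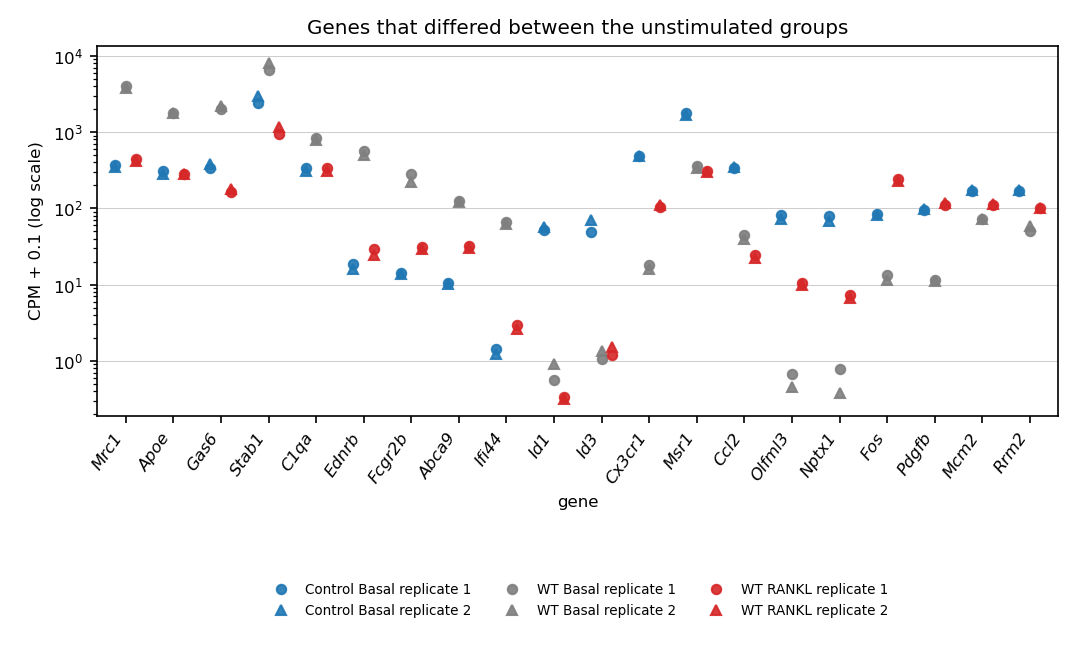
CPM + 0.1 (log axis) of 20 genes that differed between Control Basal (blue) and WT Basal (grey), with WT RANKL in red, circles for replicate 1 and triangles for replicate 2. WT RANKL lies near Control Basal for Mrc1 and Pdgfb, near WT Basal for Id3 and Msr1, and between them for Cx3cr1 and Mcm2.

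The genes furthest apart between the baselines, beside Lyz2, Id1 and Id3, were Olfml3, a secreted matrix protein, at 81.7 and 72.9 CPM in Control Basal and 0.581 and 0.361 in WT Basal, and Nptx1, a pentraxin, at 78.8 and 69.2 against 0.673 and 0.281 CPM. On the other side were Ifi44, Ednrb, the endothelin receptor B, at 18.4 and 15.9 against 562 and 504 CPM, and Fcgr2b, the inhibitory IgG receptor, at 14.1 and 13.7 against 279 and 221 CPM. Scd1, which desaturates fatty acids, and Abca9, a lipid transporter family member, were at 6.23 and 4.61 against 99.1 and 83.4 CPM and at 10.4 and 10.2 against 125 and 121 CPM. WT RANKL lay between the baselines for Olfml3, Nptx1, Ifi44, Ednrb, Fcgr2b, Scd1 and Abca9.

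Most marker lists of other blood cells summed to low levels in both groups, and those of neutrophils and megakaryocytes summed to more. The neutrophil markers, 11 of 12 of which had a row, summed to 26.9 and 29.4 CPM in WT RANKL, to 106 and 112 CPM in Control Basal and to 144 and 158 CPM in WT Basal, with 7 of 9 tested genes lower than in Control, 1 higher and 1 not passing. Mpo was at 19.8 and 20.5 CPM in Control Basal and at 1.32 and 1.73 CPM in WT RANKL. Mmp8 was at 56.3 and 50.7 CPM in Control Basal and at 6.505 and 4.43 CPM in WT RANKL. T and NK cell markers summed to at most 0.34 CPM and erythroid markers to at most 0.128 CPM, with 5 of 6 erythroid genes at 0 in all 4 libraries, and mast cell markers to at most 0.279 CPM. The stromal and osteoblast markers summed to 31.6 and 47.5 CPM in WT RANKL against 12.8 and 25.4 CPM in Control Basal, and the 4 of 9 that could be tested were all higher, 3 of them by at least 2-fold, with a median of 1.335. Without the replicate block 2 were higher. Of these, Col1a1, a collagen chain, was at 0.319 and 7.60 CPM in Control Basal and 5.83 and 13.9 CPM in WT RANKL, where the groups overlapped. The megakaryocyte list summed to 34.8 and 39.6 CPM in WT RANKL against 254 and 307 CPM in Control Basal, nearly all of it Pf4, which macrophages also express. Malat1, a nuclear RNA, was at 739 and 428 CPM in Control Basal and higher in WT RANKL, at 1592 and 733 CPM. Without the replicate block Col1a1 and Malat1 did not pass. The part of these markers in the other results was not tested.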

How the data were processed

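RNA-seq counts per gene of 12 libraries (6 groups of 2 replicates) were used as deposited. The authors mapped reads to mm10, with TopHat and Cufflinks named for replicate 1 and HISAT2, HTSeq and edgeR for replicate 2. Their versions and the handling of strand and of reads with several matches are not given in the sources used here. The Control Basal and Mir182mTg values were raw counts deposited by the authors, here scaled to the same total as CPM, and the WT and Mir182ΔM/ΔM values were CPM computed by the authors. RPKM columns that the authors also deposited were not used. Of the 24421 rows, 27 carried gene names turned into dates and were left out, which left 24394. All CPM values came back to whole reads within 0.01 read.

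Genes that reached 1 CPM in 2 or more of the 4 libraries were tested with limma 3.58.1 (R 4.3.3) on log2(CPM + 1). The replicate number was a block in the fit, and the Benjamini-Hochberg threshold was 0.05. The baselines were compared in the same way with 6 libraries. The numbers go with the RNA label and tools, and replicate deviations of WT RANKL and Control Basal correlated at 0.765 over genes, those of Control Basal and WT Basal at 0.762. Alternatives were no block, other pseudocounts, filters and scalings, all 12 libraries in the fit, each library left out, and edgeR 4.0.16 and DESeq2 1.42.0 on the reads. edgeR called 8808 genes. The code was tested on simulated data. The text names the 10 largest called differences in each direction, the 5 largest in each direction between the baselines, and members of the gene lists. The 10 were taken from genes above a minimum mean level whose groups did not overlap. The 5 were taken from called genes above the same level, without the condition on overlap. The comparison, the lists and the members named from them were chosen with earlier results of these data known. Promoters are from RefSeq and gene positions from GENCODE, both on GRCm38. A few list members are not reported here.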

Additional observations from a re-analysis of the deposited data

Results flagged for a closer look

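WT RANKL lay at least 2-fold above Control Basal and at least 2-fold below WT Basal for 11 genes, and at least 2-fold below Control Basal and at least 2-fold above WT Basal for 14 genes, so that the direction of the RANKL difference turned with the baseline. The difference between the baselines was tested in the 6-library fit. Among the 11 were Abca9 and Fcgr2b, where Control Basal minus WT Basal was -3.46 and -4.06 on the log2 scale. Among the 14 were Cx3cr1, the fractalkine receptor, at 481 and 483 CPM in Control Basal, 17.7 and 16.0 in WT Basal and 105 and 112 in WT RANKL, with 4.76 between the baselines, the AP-1 member Fosl1 with 2.32, Nptx1 with 5.68 and Olfml3 with 5.74. All of these genes were placed in the list by their values in the same libraries.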

How the results depend on the processing

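The replicate block was the setting that mattered most. Without it, 2976 genes were higher and 2312 lower in WT RANKL (5028 and 3932 with it), and 3451 higher and 1917 lower between the baselines. In WT RANKL against Control Basal, 14 of the genes named above (Apoe, Cd68, Cdc20, Col1a1, Csf1r, H2-DMa, Ifit2, Malat1, Mcm7, Mki67, Ndufa9, Scd1, Top2a and Tyrobp) lost their call. Calls lost between the baselines are not part of these 14. The cause was not tested. With a pseudocount of 5, 599 genes were at least 2-fold higher and 377 lower (976 and 580 with 1), because a larger pseudocount shrinks the change of low genes. The other settings left these counts within 1.5 times. Under edgeR 4430 genes were higher and 4378 lower, and under DESeq2 3358 and 3347.

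Leaving out 1 library at a time gave 4481 to 4518 higher and 3477 to 3532 lower genes, of which 967 to 988 and 579 to 598 were at least 2-fold, and 4950 to 5086 and 2891 to 2999 between the baselines. Of the named genes, Tyrobp and H2-DMa lost their call in WT RANKL against Control Basal without any 1 of the 4 libraries, and Apoe without WT RANKL replicate 1 or Control Basal replicate 1. The lone library of a group was then assumed to vary like the others.

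TMM scaling turned Akt1 (-0.057), Cd74 (-0.034), Slc4a2 (-0.000) and Traf6 (-0.102) between the baselines, and Tyrobp (-0.001) and Rn45s (-0.057) in WT RANKL against Control Basal. Rn45s was also at -0.056 under upper-quartile scaling and at -0.054 under edgeR and DESeq2, and Csf1r at 0.126 under quantile normalization. For WT RANKL against Control Basal none of the 22 list medians changed sign under TMM, upper-quartile or quantile scaling. TMM turned the medians of RANK signalling genes (0.043 to -0.069) and of MHC class II genes (0.08 to -0.034) between the baselines, and of podosome genes (0.159 to -0.023) against WT Basal. In the 4 libraries a gene under 0.0958 to 0.120 CPM rested on 3 reads or fewer.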
